A study of Homo sapiens with 24 samples.

Results

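The 10 genes described here encode 3 intracellular fatty acid binding proteins (FABP3, FABP5 and FABP7), the 4 carnitine palmitoyltransferases (CPT1A, CPT1B, CPT1C and CPT2) and 3 enzymes of mitochondrial beta-oxidation (ACADM, ACADVL and HADHA). They were taken by name: a probe was assigned to them when its RefSeq accession belonged to one of these genes, which gave 13 probes. All 10 genes were among the 21240 genes tested. The genes were selected on the measured rise of FABP3 on day 8 after 100 nM rotenone and on their roles, so the day 8 differences of FABP3 from DMSO are given as a description without a p-value.

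The samples were aggregates of LUHMES, a single conditionally immortalised human dopaminergic cell line grown and differentiated in 3D under gyratory shaking. Every group, controls included, was differentiated in medium with cAMP, GDNF, tetracycline and N2. On day 7 of differentiation the aggregates received 50 nM rotenone for 12 h, 50 nM for 24 h, 100 nM for 24 h, or DMSO in the amount that accompanied 100 nM rotenone. RNA was collected straight after the exposure (called day 8) or, once rotenone had been washed out and 7 more days had passed, on day 15. This gave 8 groups of 3 wells and 24 one-color arrays. The labels list no DMSO group of its own for the 12 h exposure. In comparisons of that exposure, the exposure and the time of collection therefore cannot be told apart. The replicates were wells, so p-values measure the spread between these wells, which may be technical. RNA came from whole aggregates, in which fewer cells of a kind and less RNA per cell cannot be told apart.

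Fatty acids are poorly soluble, and FABPs carry them through the cytosol between membranes, lipid droplets, the nucleus and mitochondria. FABP3 is the heart-type protein and is also found in mature neurons, FABP5 is widely expressed, and FABP7 is the brain-type protein best known from radial glia and astrocytes. Long-chain acyl groups enter mitochondria by the carnitine shuttle: CPT1 on the outer membrane forms acylcarnitine and is blocked by malonyl-CoA, and CPT2 on the inner membrane turns it back into acyl-CoA. CPT1A is the liver-type and CPT1B the muscle-type enzyme, while CPT1C sits mainly in the endoplasmic reticulum of neurons and has little activity in fatty acid oxidation. ACADVL and ACADM open the oxidation of very long and medium chains, HADHA carries further steps for long chains, and the electrons reach the respiratory chain through electron transfer flavoprotein and NADH. Rotenone blocks complex I, where NADH enters the chain, and neurons are known for low rates of fatty acid oxidation.

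The bases just before the transcription start are shown for 3 genes on which the results turn: FABP3, with the widest range of group means on day 8, CPT1A, with the rise between DMSO controls of day 8 and day 15, and CPT2, which was lower in every other group than in the day 8 controls. They come from RefSeq on GRCh38.p14, are written 5′ to 3′ on the strand of the gene and hold 250 bases each, and 8 of the 10 genes had an entry. The FABP3 stretch is chr1:31373077-31373326 on the minus strand, that of CPT1A is chr11:68844278-68844527 on the minus strand, and that of CPT2 is chr1:53196574-53196823 on the plus strand. Capitals mark GGGCGG, the core of the GC box, on the strand shown or its complement.
FABP3: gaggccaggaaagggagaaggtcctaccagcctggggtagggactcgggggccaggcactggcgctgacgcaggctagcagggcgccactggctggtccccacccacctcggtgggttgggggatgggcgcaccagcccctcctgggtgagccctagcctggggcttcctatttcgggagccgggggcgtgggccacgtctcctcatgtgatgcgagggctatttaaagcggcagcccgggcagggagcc
CPT1A: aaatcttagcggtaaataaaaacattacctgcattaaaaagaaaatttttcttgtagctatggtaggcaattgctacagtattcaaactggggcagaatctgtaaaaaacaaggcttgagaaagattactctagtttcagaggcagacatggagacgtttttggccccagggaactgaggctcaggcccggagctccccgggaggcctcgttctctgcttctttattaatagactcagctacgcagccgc
CPT2: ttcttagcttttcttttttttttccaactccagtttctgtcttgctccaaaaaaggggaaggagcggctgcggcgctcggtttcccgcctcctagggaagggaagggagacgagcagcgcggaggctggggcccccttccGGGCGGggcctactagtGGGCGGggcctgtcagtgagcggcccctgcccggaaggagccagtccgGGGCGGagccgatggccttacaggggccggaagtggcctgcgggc

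Of the bases shown, 69.2% were G or C for FABP3, 44.4% for CPT1A and 65.2% for CPT2, against a median of 58.0% over 35116 promoters of this length. The numbers of CpG were 13, 7 and 18, against a median of 11. In these 250 bases 8 motifs were searched on both strands. The nuclear receptor half-site AGGTCA was held by 12.1% of all promoters of this length. The DR1 element bound by PPAR with RXR, a pair of such half-sites with 1 base between them, was held by 0.0171%. The ERR site TCAAGGTCA, which includes the half-site, was held by 0.319%. The E-box CACGTG occurred in 6.34% of promoters, and the composite site of ATF4 and C/EBP, searched as TGATGNAAT, occurred in 0.888%. Of the general promoter elements, the GC box core shown in capitals was held by 42.6%, the CCAAT box by 32.0% and the TATA box, searched as TATAAA, by 10.7%. None of the 8 occurred in the FABP3 or CPT1A stretch, and the CPT2 stretch held the GC box core 3 times. A match or its lack describes these letters in this window and nothing more.

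Some arrays stood apart. The scan name of day 15 DMSO replicate 1 gives a 12 h exposure where its sample labels give DMSO, so the counts on day 15 and the differences between DMSO controls are also given without it. Of day 15 100 nM, replicate 3 scattered most around its group (residual SD 0.453 in log2 units), while the other 23 arrays lay between 0.205 and 0.313. Each group held the same place on all 3 slides, so place on the slide and group cannot be told apart. Replicate 1 of every group lay on slide 1, where 67.3% to 82.4% of spots were well above background, against 50.9% to 62.4% on slides 2 and 3. The 7 general neuron markers were well above background in all 8 groups. On day 8, 2 of them were called lower than in DMSO at 100 nM and 1 after 50 nM for 24 h, with medians of -0.26 and -0.21 over the 7. Of all genes, 5.41% and 4.36% were called lower. At 100 nM 3 of the 7 markers had a positive log2 fold change, and after 50 nM for 24 h 1 did. MAP2, a dendritic protein, was lower after both exposures (-0.57 and -0.49, limma adjusted p = 0.0028 and 0.011). Of 10 dopaminergic markers, 2 fell and 3 rose from day 8 to day 15 in DMSO controls. TH, which makes the dopamine precursor, and SLC6A3, the dopamine transporter, fell (mean log2 signals 9.78 to 6.84 and 8.22 to 6.15), while the transcription factors NR4A2 (6.18 to 7.76), LMX1B (5.10 to 5.83) and PITX3 (7.48 to 7.94) rose. SLC18A2, the vesicle transporter of dopamine, was well above background on 0 of 3 and 1 of 3 arrays of these groups.

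FABP3 was the member with the widest spread over groups, and the spread lay on day 8. Its log2 signals were 7.57, 7.17 and 7.30 in the day 8 DMSO controls, 7.90, 8.00 and 8.08 after 50 nM for 12 h, 9.54, 9.67 and 9.36 after 50 nM for 24 h, and 9.92, 9.45 and 9.65 after 100 nM for 24 h. Every rotenone array of day 8 lay above every DMSO array, and the 24 h arrays lay above the 12 h arrays. The group means were higher than the controls by 0.65 on the log2 scale (1.57-fold) after 50 nM for 12 h. The differences were 2.18 (4.52-fold) after 50 nM for 24 h and 2.33 (5.02-fold) after 100 nM for 24 h. Against the 12 h exposure to the same dose, a comparison that used neither the controls nor the 100 nM arrays, FABP3 was upregulated 2.88-fold after 24 h at 50 nM (log2 fold change 1.53 ± 0.16 SE, limma adjusted p = 0.00044, n = 3 and 3). It was the only member that passed in that comparison, in which 0.537% of all genes did. That call was lost when the fit held only the arrays of the 2 groups, with the same log2 fold change, and on slides 2 and 3 alone (1.49). Length of exposure and time of collection cannot be told apart in this comparison.

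On day 15 the FABP3 signals of rotenone and control aggregates overlapped. The arrays read 7.18, 7.11 and 7.50 in DMSO, 7.21, 7.13 and 7.09 after 50 nM for 12 h, 6.58, 7.29 and 7.20 after 50 nM for 24 h, and 7.39, 7.37 and 7.45 after 100 nM for 24 h. Each rotenone group overlapped the controls. The log2 fold changes were -0.12, -0.24 and 0.14 in the same order, with limma adjusted p of 1.0, 1.0 and 0.88, and the 95% interval at 100 nM ran from -0.20 to 0.48. Between the DMSO controls, FABP3 means were 7.35 ± 0.20 on day 8 and 7.26 ± 0.21 on day 15 (SD, n = 3 each). In the order of its 8 group means, from 9.67 ± 0.23 for day 8 100 nM downwards, the arrays of the 2 highest groups overlapped, gaps without overlap of 1.53 and 0.59 set off the day 8 50 nM 12 h group on both sides, and the 5 lowest groups each overlapped their neighbour.

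**Figure D1:**
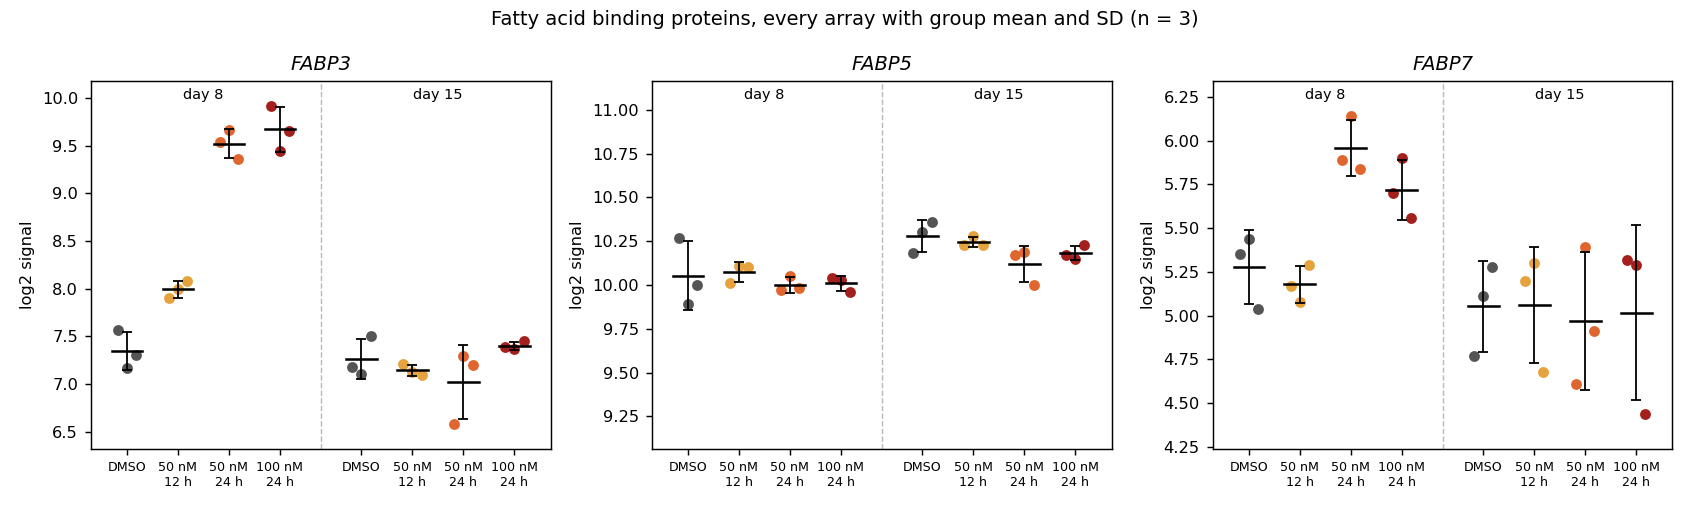
Log2 signal of FABP3, FABP5 and FABP7 on each of the 24 arrays, by exposure (x axis) and day, with the group mean (line) and SD (bars), n = 3 per group. The FABP3 points of both 24 h exposures on day 8 sit between 9.36 and 9.92, above all others, and all 12 day 15 points sit between 6.58 and 7.50.

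FABP5, the epidermal-type protein, stayed within a narrow band. Its 24 log2 signals, each the average of 3 probes, ran from 9.89 to 10.36, and the day 8 arrays of every rotenone group overlapped the controls. The log2 fold changes against DMSO on day 8 were -0.04 at 100 nM, a comparison without a p-value for these genes, and -0.05 after 50 nM for 24 h (limma adjusted p = 0.84). The difference between DMSO controls of day 15 and day 8 was 0.23 ± 0.09 (SE), with a limma adjusted p of 0.069. Without day 8 DMSO replicate 1, the highest of its group at 10.27, that difference was 0.33 with an adjusted p of 0.0081, and without day 15 DMSO replicate 1 it was 0.27 with an adjusted p of 0.056. RefSeq lists 15 FABP5 pseudogenes, and the files give no probe sequences, so binding of other copies to these probes could not be checked. The same holds for the 2 pseudogenes each of FABP7 and HADHA, the single ones of FABP3 and CPT2, and the readthrough gene CHKB-CPT1B.

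FABP7 gave log2 signals of 5.35, 5.44 and 5.04 in day 8 controls, 5.17, 5.08 and 5.29 after 50 nM for 12 h, 5.89, 6.14 and 5.84 after 50 nM for 24 h, and 5.70, 5.90 and 5.56 after 100 nM for 24 h. The arrays of both 24 h exposures lay above the controls and those of the 12 h exposure overlapped them. The log2 fold change after 50 nM for 24 h was 0.68 ± 0.23 (SE), which did not pass (limma adjusted p = 0.083). With a replicate block (each number is 1 slide) instead of the batch correction, the log2 fold change was 0.69 and the adjusted p 0.048. FABP7 passed under 5 of the 11 alternative settings in this comparison, with values from 0.33 (normexp offset 50) to 1.23 (processed signal). At 100 nM it was 0.44, without a p-value. On day 15 the signals ran from 4.44 to 5.39 with overlap between all groups, and FABP7 was the only one of the 10 genes not well above background on every array (23 of 24). Of 7 markers of astrocytes and radial glia, at most 1 was well above background on all 3 arrays of any group, and GFAP, AQP4 and HES1 were not on any day 8 array. SOX9 was on 2 of 3 arrays in day 8 DMSO, 3 of 3 after 50 nM for 24 h and 2 of 3 after 100 nM. Its means there were 5.03, 5.32 and 4.97. The summed linear signal of the 7 markers was 125 to 163 per array in day 8 DMSO, 127 to 148 after 50 nM for 24 h and 126 to 140 after 100 nM. The part of these markers in the FABP7 values was not tested.

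CPT1A was higher after rotenone on day 8 and higher again in all day 15 groups. Its log2 signals on day 8 were 5.65, 6.08 and 5.89 in DMSO, 6.18, 6.22 and 6.46 after 50 nM for 12 h, 6.31, 6.39 and 6.52 after 50 nM for 24 h, and 6.56, 6.55 and 6.62 after 100 nM for 24 h. All 9 rotenone arrays lay above the 3 controls. On day 15 they were 7.34, 7.21 and 7.24 in DMSO, 7.52, 7.27 and 7.56, 7.39, 7.27 and 7.54, and 7.78, 7.22 and 7.70 in the rotenone groups in the same order, so that every day 15 array exceeded every day 8 array.

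Between the DMSO controls CPT1A was upregulated 2.61-fold from day 8 to day 15 (log2 fold change 1.39 ± 0.14 SE, limma adjusted p = 4.2e-07), and without day 15 DMSO replicate 1 the value was 1.35 (adjusted p = 7e-06). The call held under all 11 alternative settings, but the value ran from 0.90 to 1.90. Against the day 8 controls CPT1A was upregulated by 0.53 ± 0.14 on the log2 scale after 50 nM for 24 h (limma adjusted p = 0.020). Here it passed under 8 of the 11 settings, with values from 0.31 to 0.79. The 12 h value of 0.41 did not pass (limma adjusted p = 0.096). At 100 nM the means were 6.58 ± 0.04 and 5.88 ± 0.21 (SD, n = 3 each), a log2 difference of 0.70 (1.63-fold) given without a p-value. The call at 50 nM for 24 h was lost without DMSO replicate 1 (0.42, adjusted p = 0.12), without DMSO replicate 3 (0.54, adjusted p = 0.056), and without replicate 2 (0.54, adjusted p = 0.053) or replicate 3 (0.48, adjusted p = 0.090) of the rotenone group. On day 15 the differences from DMSO ran from 0.14 to 0.30 and none passed. In the order of the 8 group means, the 4 day 15 groups overlapped their neighbours, the day 8 groups followed after a gap of 0.69 without overlap, and the day 8 DMSO controls stood last, 0.41 below the 12 h group and without overlap.

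CPT1C, the neuronal form, moved the other way. Its log2 signals, averaged over 2 probes, were 11.71, 11.77 and 11.83 in day 8 DMSO, 11.60, 11.49 and 11.47 after 50 nM for 12 h, 11.19, 11.24 and 11.39 after 50 nM for 24 h, and 11.41, 11.23 and 11.43 after 100 nM for 24 h. All 9 rotenone arrays lay below the controls. On day 15 the DMSO arrays gave 11.14, 11.07 and 11.04, and all 12 arrays of that day lay between 10.93 and 11.32. CPT1C was downregulated after 50 nM for 24 h on day 8 (log2 fold change -0.50 ± 0.08 SE, limma adjusted p = 0.00084) and did not pass after 12 h (-0.25, limma adjusted p = 0.095). At 100 nM it was 0.41 lower on the log2 scale, without a p-value, and its 2 probes gave -0.42 and -0.41. MAP2 was lower in the same 2 groups, as given above, while 3 of the 7 neuron markers at 100 nM and 1 after 50 nM for 24 h were higher. The part of the neuron markers in the CPT1C values was not tested. From day 8 to day 15 the DMSO controls fell by 0.69 on the log2 scale, a 1.61-fold decrease (limma adjusted p = 4.8e-06). Without day 15 DMSO replicate 1 the difference was -0.72 (adjusted p = 2.6e-05).

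**Figure D2:**
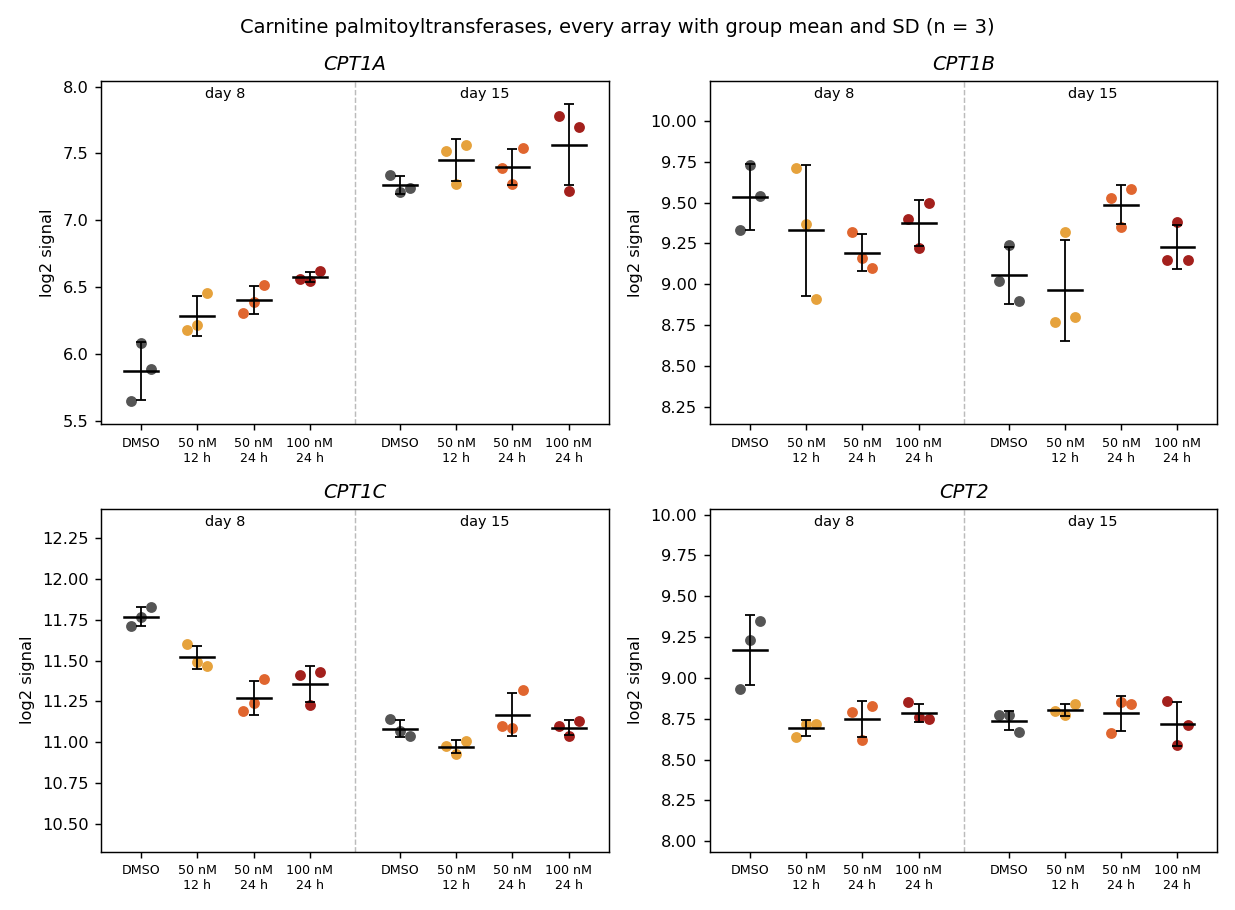
Log2 signal of CPT1A, CPT1B, CPT1C and CPT2 on each array, by exposure (x axis) and day, with the group mean (line) and SD (bars), n = 3 per group. In CPT1A the day 8 rotenone points lie above and in CPT1C below the day 8 DMSO points, the day 15 group means lie further in the same direction, and in CPT2 the day 8 DMSO points lie above all others.

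In CPT2 the day 8 controls stood apart from everything else. They read 8.93, 9.23 and 9.35, with a mean of 9.17, while the means of the 7 other groups lay between 8.69 and 8.80. On day 8 the arrays after 50 nM for 12 h gave 8.64, 8.72 and 8.72, those after 50 nM for 24 h gave 8.79, 8.62 and 8.83, and those after 100 nM gave 8.85, 8.76 and 8.75. CPT2 was lower than in DMSO by 0.48 on the log2 scale after 50 nM for 12 h (limma adjusted p = 0.0073), by 0.42 after 50 nM for 24 h (limma adjusted p = 0.013) and by 0.38 after 100 nM, the last without a p-value. It was downregulated 1.35-fold in day 15 against day 8 DMSO (log2 fold change -0.43 ± 0.10 SE, limma adjusted p = 0.0037), or by -0.45 (adjusted p = 0.010) without day 15 DMSO replicate 1. All 4 comparisons share the 3 day 8 DMSO arrays. Without DMSO replicate 3, the highest, the call was lost after 50 nM for 12 h (-0.39, adjusted p = 0.051) and for 24 h (-0.33, adjusted p = 0.083). At 24 h it was also lost without DMSO replicate 2 (-0.39, adjusted p = 0.057) or rotenone replicate 2 (-0.35, adjusted p = 0.071).

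CPT1B, the muscle-type enzyme, ran from 8.77 to 9.73 over the 24 arrays. Its day 8 controls read 9.33, 9.73 and 9.54, and the rotenone arrays of that day overlapped them at 100 nM and after 50 nM for 12 h. The difference after 50 nM for 24 h was -0.34 (limma adjusted p = 0.32), with no overlap between 9.32, 9.16 and 9.10 and the controls. The difference of -0.48 ± 0.18 (SE) between day 15 and day 8 DMSO did not pass (limma adjusted p = 0.058), and had an adjusted p of 0.047 without day 8 DMSO replicate 1 (-0.58) and of 0.13 without day 15 DMSO replicate 1 (-0.46). Of 9 striated muscle markers, 7 were higher on day 15 than on day 8 in DMSO controls. Limma called 4 of them, all higher, against 23.2% of all genes called. The summed linear signal of the 9 was 1340 to 1608 in day 8 and 3583 to 5495 in day 15 DMSO arrays. DES had the highest mean log2 signal of the 9 on both days (9.55 and 11.61), so the sum leans most on it. With rotenone, 0 of these 9 markers were called in any comparison with DMSO of the same day, and 0 had an unadjusted p under 0.05. MYH6 and ACTC1 were not well above background on any day 8 array, and the part of these markers in the values of FABP3 and CPT1B was not tested.

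ACADVL, which starts oxidation of the longest chains, differed between days and not detectably with rotenone. Its day 8 DMSO arrays gave 12.82, 13.16 and 12.96 and its day 15 DMSO arrays 12.04, 12.24 and 12.05, a 1.83-fold decrease without overlap (log2 fold change -0.87 ± 0.14 SE, limma adjusted p = 0.00013). Without day 15 DMSO replicate 1 the value was -0.83 (adjusted p = 0.0011). The day 8 rotenone groups overlapped the controls, and their log2 differences were within 0.21 of 0. On day 15 all arrays after 50 nM for 24 h, at 12.46, 12.29 and 12.60, lay above the DMSO arrays, by 0.34 on average, with an unadjusted p under 0.05 that did not pass after adjustment.

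ACADM, the medium-chain enzyme, and HADHA, the alpha subunit of the trifunctional protein, passed in no comparison. Over the 24 arrays ACADM ran from 8.37 to 8.95 and HADHA from 9.63 to 10.12. At 100 nM on day 15 the ACADM arrays read 8.43, 8.53 and 8.37 against 8.70, 8.85 and 8.82 in DMSO. These 2 groups did not overlap, and the difference of -0.35 had an unadjusted p of 0.0051 and a limma adjusted p of 0.56. The HADHA differences from DMSO were 0.20 at 100 nM on day 8, without a p-value, and 0.02 after 50 nM for 24 h.

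**Figure D3:**
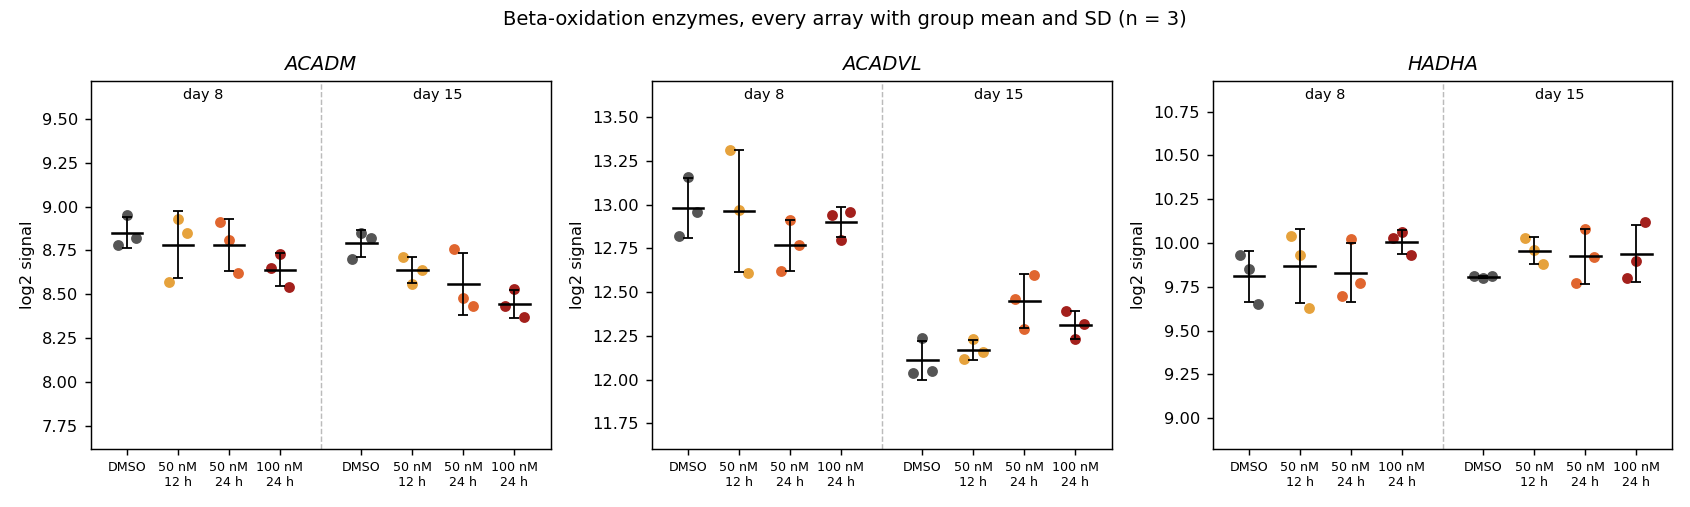
Log2 signal of ACADM, ACADVL and HADHA on each array, by exposure (x axis) and day, with the group mean (line) and SD (bars), n = 3 per group. ACADVL lies at 12.61 to 13.31 on day 8 and 12.04 to 12.60 on day 15, and ACADM and HADHA overlap between the days, with the ACADM points of day 15 100 nM below all its day 8 points.

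Counted over the 10 genes, 4 had an adjusted p under 0.05 at 100 nM on day 8 (FABP3 and CPT1A higher, CPT1C and CPT2 lower), where 9.48% of all genes did. In the same comparison the arrays of 100 nM and DMSO did not overlap for 7 of the 10 genes, and for 28.5% of all genes. This contrast guided the choice of the genes and nothing is read from either count. After 50 nM for 24 h 4 passed (FABP3 and CPT1A higher, CPT1C and CPT2 lower), against 8.02% of all genes, and after 50 nM for 12 h 2 passed (FABP3 higher, CPT2 lower), against 5.52%. These counts include FABP3, whose p-values are not given. All 3 comparisons share the day 8 DMSO arrays. In a fit of the 2 compared groups only, 2, 1 and 0 genes passed in these comparisons, with the same log2 fold changes. Between 100 nM and 50 nM at 24 h on day 8, limma called 0 of the 10 genes and 0% of all genes, and at an unadjusted p under 0.05 it was 0 of 10 and 4.17%. The differences between these doses ran from -0.23 to 0.18 on the log2 scale over the 10 genes.

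After the recovery period limma called 0 of the 10 genes and 0% of all genes in each of the 3 rotenone groups against day 15 DMSO. At an unadjusted p under 0.05 there were 2 of the 10 at 100 nM (CPT1A 0.30 and ACADM -0.35, with 7.21% of all genes), 3 after 50 nM for 24 h (CPT1B 0.43, ACADM -0.24 and ACADVL 0.34, with 3.28%) and 0 after 50 nM for 12 h (with 3.47%). Without day 15 DMSO replicate 1 the adjusted counts were again 0 in all 3 groups, and without day 15 100 nM replicate 3 the count at 100 nM was again 0. Between DMSO controls, 4 of the 10 genes differed from day 8 to day 15 (CPT1A higher, CPT1C, CPT2 and ACADVL lower), against 23.2% of all genes.

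The change of the rotenone response between the days was fitted as a difference of differences, day 15 minus day 8. For 50 nM for 24 h, 2 of the 10 genes passed, FABP3 (-2.41, without a p-value) and CPT1C (0.58 ± 0.12 SE, limma adjusted p = 0.012), against 2.16% of all genes. The CPT1C call was lost in a fit of the 4 groups alone, with the same value, and on slides 2 and 3 alone (0.63), and without day 15 DMSO replicate 1 the value was 0.61 (adjusted p = 0.018). For 100 nM, FABP3 passed (-2.19, without a p-value), against 2.44% of all genes, and with the replicate block the count was 2, with CPT1C added. For 50 nM for 12 h, 0 of the 10 passed, against 1.08%. All of these use the day 8 DMSO arrays. FABP3 was chosen on its day 8 rise at 100 nM, and these differences contain that contrast or share its arrays. So nothing is read here from the FABP3 calls or from the counts for 100 nM.

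**Figure D4:**
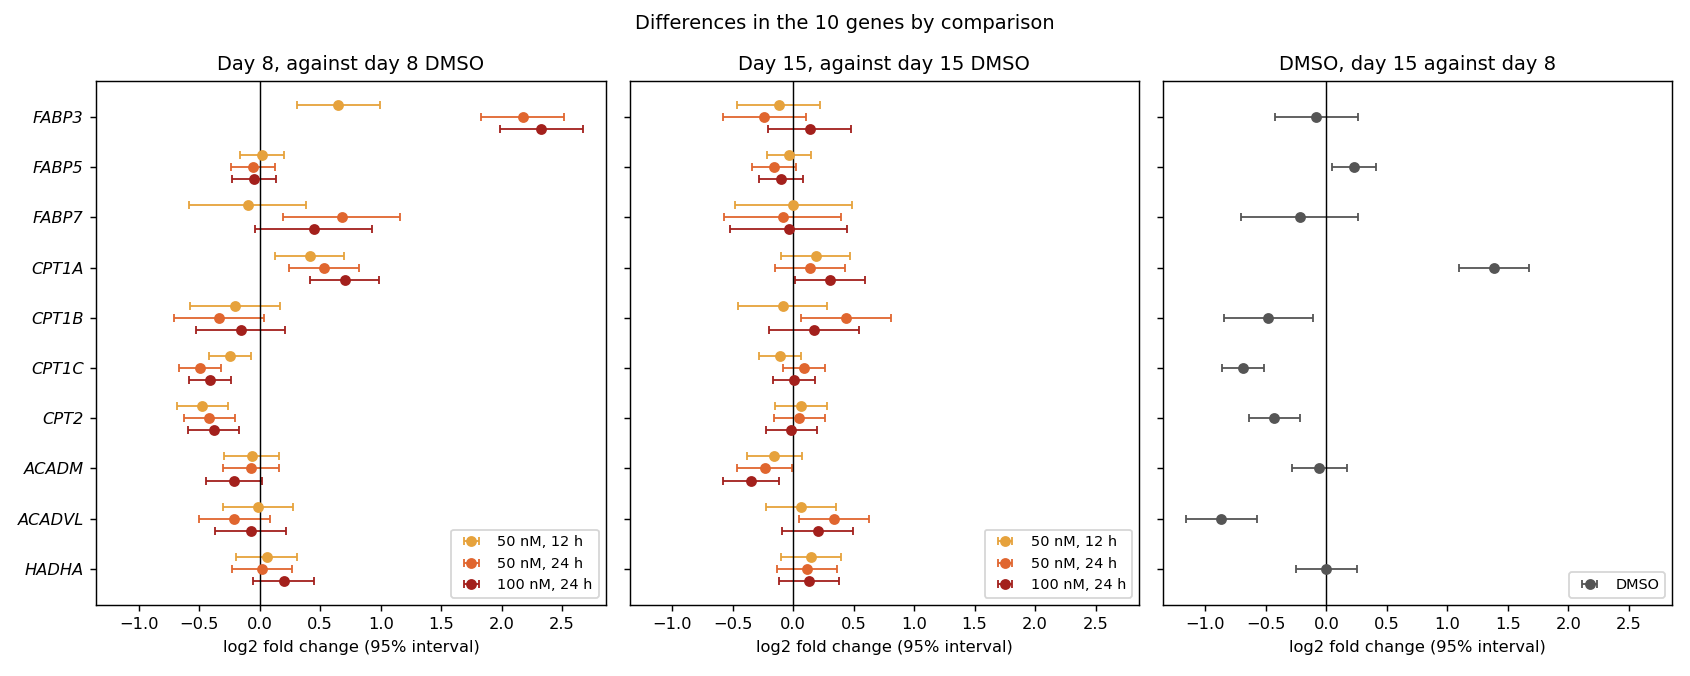
Log2 fold changes of the 10 genes in the comparisons with DMSO and between the DMSO controls, 1 point per gene and comparison. FABP3 stands apart at 2.18 and 2.33 after the 24 h exposures on day 8, and the day 15 rotenone values lie between -0.35 and 0.43.

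Over the 8 group means the genes were related to each other in a few ways, described here without a test because the groups share the day of collection and some of the same controls. FABP3 and FABP7 had a Pearson r of 0.945, CPT1A and CPT1C of -0.925, ACADVL and FABP5 of -0.912, ACADVL and CPT1A of -0.907, and ACADVL and CPT1C of 0.889. These were the 5 pairs farthest from 0. Among 2592 genes with a range of at least 1 log2 unit, those with group means most like FABP3 were LITAF (r = 0.964), LOC100507250 (0.962), ACSS2 (0.962), GHDC (0.961) and UQCC2 (0.955). LITAF, for example, had means of 6.96, 7.48, 8.20 and 8.26 on day 8 and between 6.33 and 6.77 on day 15. ACSS2 makes acetyl-CoA from acetate in the cytosol and nucleus, and UQCC2 helps to assemble complex III. Those most like CPT1A were RASL10B (0.995), RAB29 (0.994), MCAM (0.990), SIPA1 (0.990) and PFKP (0.989), the last encoding the platelet form of phosphofructokinase.

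Of the genes around these 10 in fatty acid handling, 105 were tested in 8 lists. At 100 nM on day 8, 6 of the 105 were upregulated and 4 downregulated, or 9.52%, against 9.48% of all genes, so their share was that of the whole array. The median log2 fold change was 0.02, against -0.02 over all genes. In mitochondrial beta-oxidation 2 of 17 rose and 1 fell: ETFDH, which hands electrons from beta-oxidation to ubiquinone (0.50, limma adjusted p = 0.0053), HADH, the short-chain hydroxyacyl-CoA dehydrogenase (0.35, limma adjusted p = 0.018), and HSD17B10 (-0.37, limma adjusted p = 0.024). In peroxisomal beta-oxidation ACOX3 (0.50, limma adjusted p = 0.0013) and PHYH (0.30, limma adjusted p = 0.034) rose, out of 14. Of 9 genes of carnitine supply and shuttle, ALDH9A1 (-0.39) and CROT (-0.57, well above background on 2 of the 3 rotenone arrays) fell. Of 13 regulators RXRA, the partner of PPARs (0.53, limma adjusted p = 0.0057), and PPARGC1B, a coactivator of mitochondrial genes (0.47, limma adjusted p = 0.014), rose. Limma called 0 of 13 other lipid binding proteins, 0 of 16 genes of uptake and activation, 0 of 10 PPAR target genes and 0 of 13 lipid droplet genes, and at an unadjusted p under 0.05 the counts were 2, 1, 0 and 3. FABP4, the adipocyte protein, was not well above background on any array, and 0 of 5 adipocyte markers were called.

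On day 15, 0 of the 105 genes and 0% of all genes passed at 100 nM, and 6 of the 105 (5.71%) had an unadjusted p under 0.05, against 7.21% of all genes. Without day 15 DMSO replicate 1, and without day 15 100 nM replicate 3, the count was also 0.

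Between the DMSO controls, 12 of the 105 rose and 20 fell from day 8 to day 15, and without day 15 DMSO replicate 1 the numbers were 9 and 18. Of the 26 genes named here for this comparison 22 kept their call without that array, and ETFB (0.33, limma adjusted p = 0.051), PLIN3 (0.53, adjusted p = 0.061), PPARGC1A (0.68, adjusted p = 0.063) and ACOX3 (-0.18, adjusted p = 0.20) did not. In mitochondrial beta-oxidation 3 of 17 rose and 9 fell, with a median of -0.32 against -0.04 over all genes, where 10.1% of all genes rose and 13.2% fell. The 3 that rose were the electron carriers downstream of the acyl-CoA dehydrogenases: ETFA (0.83, limma adjusted p = 3.1e-06), ETFDH (0.69, limma adjusted p = 1e-04) and ETFB (0.36, limma adjusted p = 0.014). Among those that fell were ACAD9 (-0.56, limma adjusted p = 1.1e-05), which also serves complex I assembly, ECI2 (-0.53) and ACAA2, the last thiolase step, whose arrays went from 8.05, 8.27 and 8.33 to 6.59, 6.55 and 4.68, the lowest not well above background (-2.28, limma adjusted p = 8.7e-05).

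In uptake and activation CD36, a fatty acid translocase, rose from 5.12, 5.33 and 4.95 to 7.48, 7.08 and 7.55 (log2 fold change 2.24, limma adjusted p = 3.6e-06). ACSBG1, an acyl-CoA synthetase of brain (2.13, well above background on 2 of 3 day 8 arrays), and ACSL3 (0.79) rose with it, and ACSL5 fell (-0.99, well above background on 1 of 3 day 15 arrays), out of 16. CRABP1, which binds retinoic acid (1.62), and FABP6, the ileal bile acid binding protein (0.85), rose out of 13 other lipid binding proteins. In the carnitine list SLC22A4 rose (0.63) and ALDH9A1 (-0.82) and TMLHE (-0.49), both of carnitine synthesis, fell. Of 14 peroxisomal genes HACL1 (-0.79), PHYH (-0.35) and ACOX3 (-0.26) fell. Among regulators PPARGC1A rose (0.65) and PPARGC1B (-0.90) and the AMPK catalytic subunits PRKAA1 (-0.56) and PRKAA2 (-0.57) fell. ANGPTL4 (0.67) rose and PLIN2 (-0.63) fell among PPAR targets, and PLIN3 (0.60) rose and ABHD5 (-0.66) fell among lipid droplet genes. Over the same interval all 6 markers of cycling cells fell, from a summed linear signal of 411 to 705 per array to 165 to 217, and their part in these differences was not tested.

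**Figure D5:**
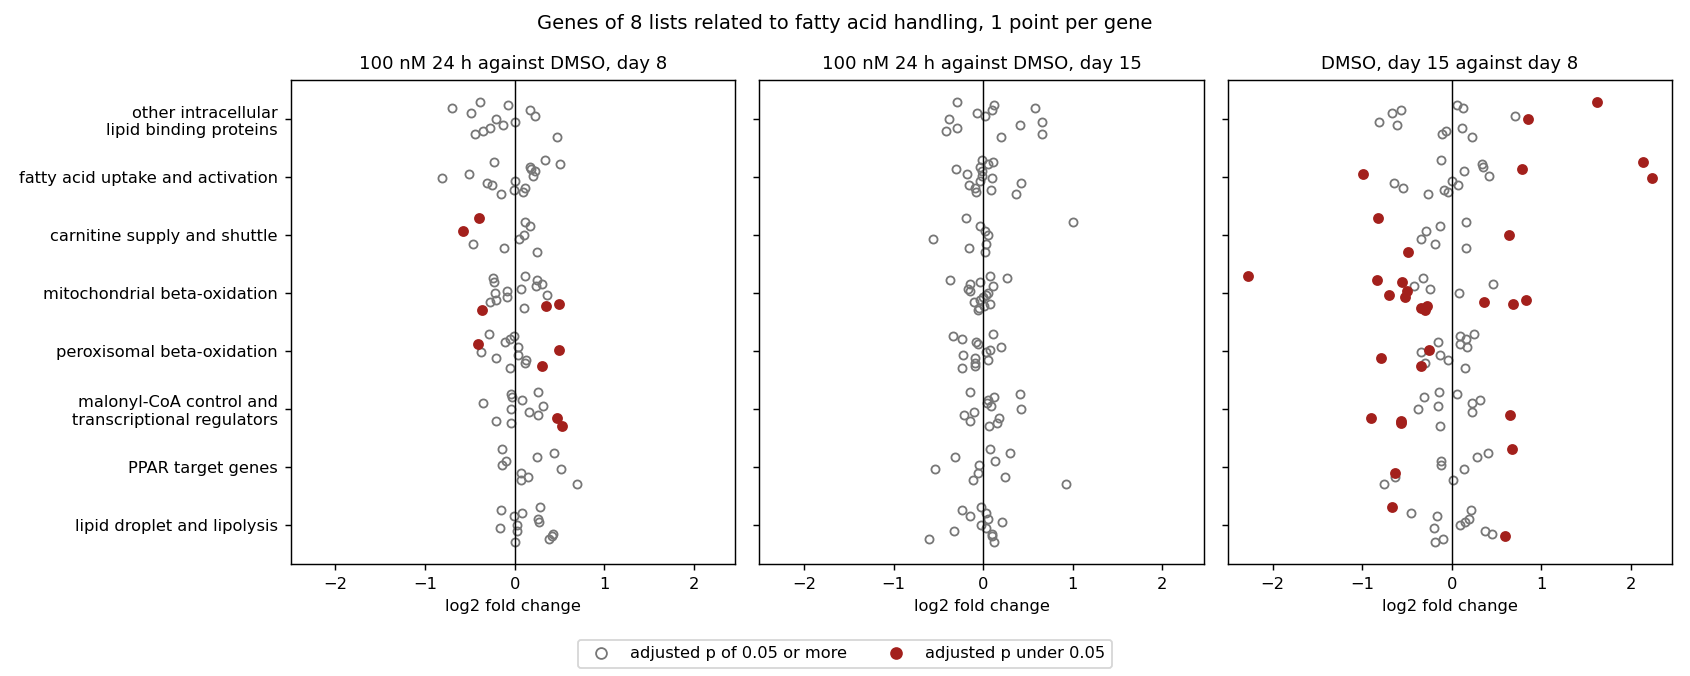
Log2 fold changes (x axis) of 105 genes in 8 lists (rows) at 100 nM on day 8, at 100 nM on day 15 and between DMSO controls, 1 point per gene, filled where the limma adjusted p was under 0.05. There are 10, 0 and 32 filled points in the 3 panels.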

How the data were processed

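Total RNA of 24 samples was labelled with Cy3 and hybridised to Agilent human 8x60K arrays. Per the labels, slide 1 was repeated and needs batch correction. The authors deposited 1 scanner table per array, with median spot and local background intensities that are not normalized (Feature Extraction 11.5.1.1 in the submitters' processing notes, which also name R 3.5, and 12.0.0.7 in the files of slide 2), and 1 table of log2 values that they had corrected, normalized and batch-adjusted, used here as an alternative. In that table, deposited values had a median correlation of 0.975 with those computed here over 19610 shared genes.

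Following the study's methods, the median intensities were corrected with normexp (offset 0), quantile normalized, taken to log2 and adjusted by ComBat (parametric priors, the 8 groups kept in its model, slide 1 as 1 batch and slides 2 and 3 as the other). A spot entered if it exceeded 1.1 times the level of the 95th percentile among 308 negative controls on 3 or more arrays (59462 of 62976 did). Control spots and 6756 flagged values were dropped. Spots were averaged per probe and probes per gene, named through RefSeq accessions (29394 of 48317 probes kept had a gene, giving 21240 genes). All 24 arrays entered 1 limma fit (lmFit and eBayes, two-sided), with Benjamini-Hochberg adjustment over all genes and calls at an adjusted p under 0.05. The p-values do not count the degrees of freedom spent on the batch and are somewhat too small. Limma 3.58.1 ran in R 4.3.3 and the scripts were tested on simulated data.

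The 10 genes and all lists were chosen with earlier results of these data known. So no p-value is given for these 10 genes at 100 nM on day 8 or for the difference of that response between days, nor for FABP3 where day 8 DMSO or 100 nM day 8 arrays enter. The p-values given for the other genes against day 8 DMSO, CPT1A, CPT1C and CPT2 among them, use the control arrays of that 100 nM comparison. They are not independent of it. Named otherwise were up to 3 genes per list and direction with the smallest p among those called, and the 5 genes most like FABP3 and CPT1A. Same-numbered arrays shared a slide. Their deviations from the group means correlated in all 84 pairs (lowest r 0.172, median 0.458, before batch adjustment). The main limma fit held no replicate block. Beyond the batch adjustment, its p-values do not use this pairing. The fit with a replicate block was an alternative. The probes have no sequences in the files used here, and SLC27A1, PLIN4 and G0S2 were not analysed. One called gene of the lists is counted but not reported here by name. The number of arrays limits the precision. Values of different genes are not comparable as levels.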

Additional observations from a re-analysis of the deposited data

Results flagged for a closer look

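The response of CPT1C to 50 nM rotenone for 24 h differed between the days. It was -0.50 on the log2 scale on day 8 and 0.09 on day 15, and the difference between the days, tested as an interaction, was 0.58 (limma adjusted p = 0.012). The call held under 8 of the 11 alternative settings. In the DMSO controls themselves CPT1C was lower on day 15 than on day 8 by 0.69 on the log2 scale.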

How the results depend on the processing

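Over the 11 settings tried, 747 of the 814 values of single genes kept their direction and their side of the threshold. Of the rest, 27 lost a call, 15 gained one and 25 changed sign. Many of the 814 belong to genes not called, so this share says little about the calls. CPT2, for example, kept its call under 8 of the 11 settings in each 50 nM comparison with day 8 DMSO. Fits of the compared groups alone called 2 of the 10 genes at 100 nM on day 8, 1 after 50 nM for 24 h, 0 after 12 h, 0 for 24 h against 12 h and 1 for the change of the 50 nM 24 h response between days. Slides 2 and 3 alone gave 2, 2, 0, 0 and 1 in the same order. Without batch correction the counts were 2 after 50 nM for 24 h, 0 after 12 h and 1 for the change of the 24 h response. The change of the 100 nM response gave 2 calls, with CPT1C added, with deposited values, a filter on spots well above background, normexp offset 50 and the replicate block, and that of the 12 h response gave 1 (CPT2) with deposited values, offset 50 and processed signals. Deposited values called 4 genes after 12 h, and deposited values and processed signals each called 2 for 24 h against 12 h (FABP7 added). Between DMSO controls CPT1B passed with deposited values, the filter on spots well above background, offset 50 and processed signals, and FABP5 with offset 50. The cause of these differences was not tested. The replicate block kept every call among the 10 genes and otherwise added FABP7 after 50 nM for 24 h (0.69), and among the 105 list genes it gave 10, 0 and 30 calls where the reported counts are 10, 0 and 32, an alternative chosen after seeing the data, as were those counts without single arrays.

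Leaving out 1 array at a time, the counts ran from 3 to 4 at 100 nM on day 8, 2 to 4 after 50 nM for 24 h, 0 to 2 after 12 h (0 without day 8 DMSO replicate 3), 1 to 1 for 24 h against 12 h, 0 to 0 for 100 nM against 50 nM and for each day 15 comparison, 4 to 6 between DMSO controls, and 1 to 1, 2 to 3 and 0 to 1 for the changes of the 100 nM, 50 nM 24 h and 12 h responses. CPT2 at 100 nM on day 8 lost its call without DMSO replicate 2 or 3 or 100 nM replicate 2 or 3. FABP3 after 50 nM for 12 h lost its call without DMSO replicate 2 or 3 or rotenone replicate 2 or 3. These calls rest on the contrast that guided the choice or on its control arrays. They are given as a description and nothing is read from them.

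Values that changed sign were all of genes not called. On slides 2 and 3 they were ACADM after 12 h on day 8 (0.0073), CPT1B after 12 h on day 15 (7.84e-05), FABP5 on day 8 at 100 nM (0.051) and after 50 nM for 24 h (0.074), FABP7 after 12 h on day 15 (-0.21), and FABP3 (0.082) and HADHA (0.062) between DMSO controls. With processed signals they were ACADM after 50 nM for 24 h (0.0012), ACADVL at 100 nM (0.027) and FABP7 after 12 h (0.081) on day 8, CPT1C (-0.055), CPT2 (0.033) and FABP7 (0.45) at 100 nM on day 15, and FABP7 between controls (0.21). With 75th percentile scaling they were ACADVL after 12 h on day 8 (0.040), CPT1C (-0.048) and FABP7 (0.47) at 100 nM and FABP7 after 50 nM for 24 h (0.0096) on day 15, and FABP3 between controls (0.011). Deposited values gave CPT1C -0.0012 at 100 nM on day 15, offset 50 gave FABP7 -0.0085 after 12 h on day 15, and no batch correction and the replicate block each gave FABP7 -0.031 there and HADHA 0.0032 between controls. Processed signals moved the median of all genes by 0.10 at 100 nM on day 8 and 0.15 between controls, and 75th percentile scaling by 0.14 and 0.16 in the changes of the 100 nM and 12 h responses.

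Without single arrays, signs changed within -0.14 to 0.039 (ACADM) and -0.19 to 0.16 (ACADVL), -0.39 to 0.0068 (CPT1B), -0.060 to 0.13 (FABP5) and -0.033 to 0.18 (HADHA) after 12 h on day 8, -0.14 to 0.011 (ACADM), -0.14 to 0.052 (FABP5) and -0.077 to 0.084 (HADHA) after 50 nM for 24 h, and -0.15 to 0.014 (ACADVL) and -0.13 to 0.062 (FABP5) at 100 nM. On day 15 they changed within -0.27 to 0.010 (CPT1B), -0.082 to 0.0074 (FABP5) and -0.14 to 0.19 (FABP7) after 12 h, -0.29 to 0.095 (FABP7) after 50 nM for 24 h, and -0.015 to 0.036 (CPT1C), -0.086 to 0.051 (CPT2) and -0.19 to 0.25 (FABP7) at 100 nM, and between controls within -0.20 to 0.029 (FABP3) and -0.080 to 0.060 (HADHA). FABP7 was not well above background on 1 array.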
